A study of Triticum aestivum with 12 samples.

Results

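The names AML1 and AML2 in the study's list of meiosis genes stand for 9 wheat gene models that code for Mei2-like RNA-binding proteins. The AML1 entry, which the list shares with AML4, holds 6 of them and the AML2 entry holds 3, out of 209 gene models on that list and 266760 in the count tables. All IDs under these names were taken, whatever their values. The names themselves were picked with the heat response of ‘Mv 17-09’ known, so the fold changes of the 9 copies in it are given here as a description, without p-values, as are those of every contrast that holds its heat-stressed libraries.

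RNA was sequenced from whole anthers of 2 winter wheat cultivars, the heat-sensitive Hungarian ‘Mv 17-09’ and the heat-tolerant German ‘Ellvis’. Heat-stressed plants were kept at 35 °C for 24 h, starting on the day before meiosis began, and their anthers were collected at the end of the treatment. Control anthers came from untreated plants at the same stage. Each of the 4 groups holds 3 libraries, which the paper describes as biological replicates that were sequenced independently. The labels do not say which growing experiment each library came from. The p-values thus reflect how far these libraries scatter, which may be technical in part. In bulk anthers, fewer cells of a type and less RNA per cell cannot be told apart.

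Mei2-like proteins bind RNA through RNA recognition motifs. In fission yeast, Mei2 is the RNA-binding switch that is needed to enter meiosis. In Arabidopsis, combined loss of several AML genes lowers fertility and disturbs meiosis, and AML1 interacts with RAPTOR1, a partner of the TOR growth kinase. In rice, the MEI2-like protein OML4 limits grain size, so the family also acts outside meiosis. Bread wheat carries 3 subgenomes, A, B and D, and most genes are present as 1 copy (homoeologue) on each.

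The 9 gene models form 3 homoeologue groups. The copies annotated as MEI2-like 3, under AML1, were TraesCS1A03G0016300 on chromosome 1A (4379076 to 4386587), TraesCS1B03G0015900 on 1B, and TraesCS1D03G0008200 on 1D (2648945 to 2656396). For the 1B copy, the study's annotation gave the RefSeq gene of the 1A copy, and no coordinates are printed for it. The copies annotated as MEI2-like 4, also under AML1, were TraesCS2A03G0718900 on 2A (496279624 to 496288077), TraesCS2B03G0796600 on 2B (442072335 to 442080688) and TraesCS2D03G0664600 on 2D (367801498 to 367809845). The AML2 copies, annotated as MEI2-like 2, were TraesCS4A03G1244900 on 4A (751823274 to 751829012), TraesCS7A03G0007300 on 7A (1733597 to 1739064) and TraesCS7D03G0007200 on 7D (2250859 to 2256557). The end of the long arm of 4A came from 7B by translocation, so the 4A copy stands in for the B copy. Coordinates are RefSeq gene spans, introns included, on the IWGSC reference assembly to which the reads were mapped. Each copy is called by its chromosome from here on.

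The shallowest library by far was ‘Ellvis’ control replicate 1, with 1831675 counts, where the other 11 held between 9336312 and 20846135. All 9 copies passed the filter on low counts, which kept 70527 gene models. In the shallow library the copies had 28 to 143 counts, against 64 to 4726 in the others. That library was the lowest ‘Ellvis’ control for 9 of 9 copies, so most fold changes that rest on ‘Ellvis’ controls are given with and without it. Shares and counts of ranges include it. Levels are normalised CPM, counts scaled to a common library size with TMM factors, which are not divided by transcript length and are therefore compared between groups and not between genes. How reads shared by near-identical homoeologues were divided is not given in the sources used here, so the level of a single copy is less certain than the sum over its group.

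The MEI2-like 3 copies on 1A and 1D were lower in heat-stressed than in control anthers of ‘Mv 17-09’, and the MEI2-like 4 copies on 2A, 2B and 2D were higher. The AML2 copies were also lower after heat, by a smaller amount. In ‘Ellvis’ no copy met the criteria for a change. The plot of CPM by library gives every value.

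**Figure D1:**
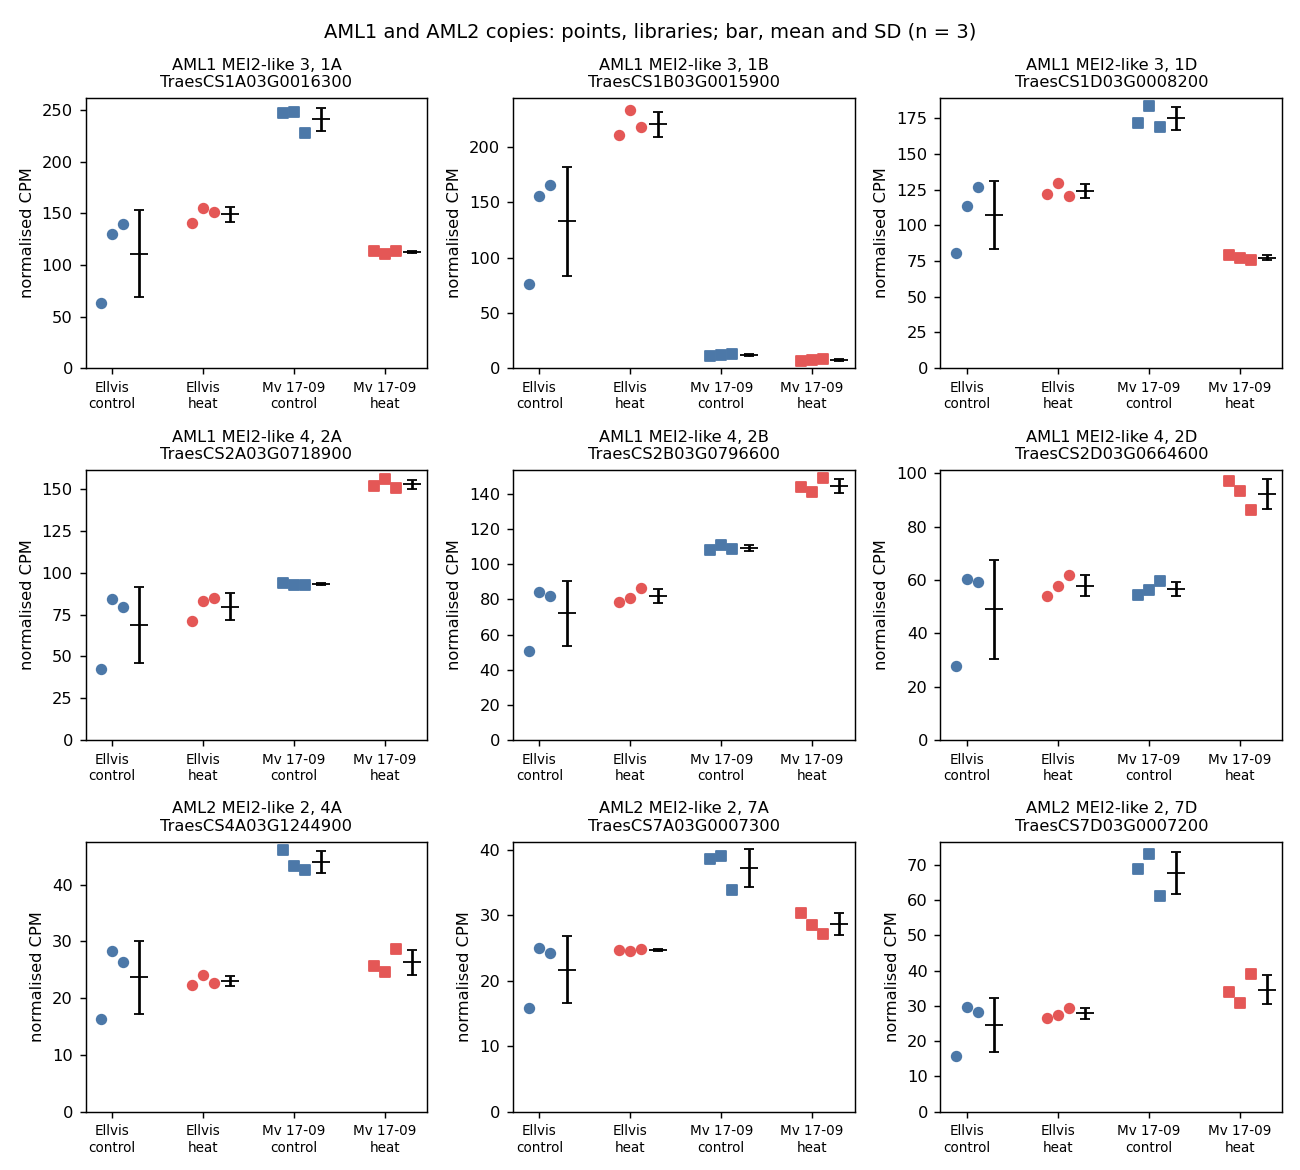
Normalised CPM of each of the 9 AML copies (vertical axis, from 0) in the 12 libraries, in 1 panel per copy. Points are libraries (circles, ‘Ellvis’; squares, ‘Mv 17-09’; blue, control; red, heat-stressed), and the black bar is the mean and SD of 3 libraries. In ‘Mv 17-09’ the control and heat-stressed points are apart in all 9 panels, whereas in 7 panels those of ‘Ellvis’ overlap, and the 1B copy is near the axis in ‘Mv 17-09’.

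The 1A copy of MEI2-like 3 had 247, 248 and 228 CPM in ‘Mv 17-09’ controls and 113, 111 and 113 CPM after heat stress. In ‘Ellvis’ it had 62.7, 130 and 140 CPM in controls and 141, 155 and 151 CPM after heat. ‘Mv 17-09’ controls were thus the highest group (mean 241 ± 11.2 CPM, SD, n = 3) and heat-stressed ‘Ellvis’ the next (149 ± 6.83 CPM), while the ranges of heat-stressed ‘Mv 17-09’ and ‘Ellvis’ controls overlapped. The heat-stressed level was 46.5% of the control level in ‘Mv 17-09’ (log2 fold change −1.10), which met both criteria used for a call, a Benjamini-Hochberg adjusted p under 0.05 and at least a 2-fold change.

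The 1D copy had the same order in ‘Mv 17-09’, with 172, 184 and 169 CPM in controls and 79, 77.5 and 75.8 CPM after heat. Its heat-stressed level was 44.3% of control (log2 −1.17), and it also met the criteria. In ‘Ellvis’ it had 80.8, 114 and 127 CPM in controls and 122, 130 and 121 CPM after heat, so those groups overlapped. The 1A and 1D copies were called as fallen in ‘Mv 17-09’, 2 of 9 copies, and 0 of 9 as risen. Over all tested gene models 6.93% fell and 4.67% rose there, and since the names were picked with this contrast known, nothing is read from the difference.

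The 1B copy stood apart by its level. It had 10.8, 11.5 and 12.6 CPM in ‘Mv 17-09’ controls and 6.67, 7.76 and 8.24 CPM after heat, a log2 fold change of −0.62 that did not meet the criteria. In ‘Ellvis’ the same copy had 76.3, 156 and 166 CPM in controls and 211, 233 and 218 CPM after heat. Every ‘Ellvis’ library was therefore above every ‘Mv 17-09’ library, under both treatments.

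The MEI2-like 4 copies had the opposite order in ‘Mv 17-09’. The 2A copy had 93.9, 93 and 92.7 CPM in controls and 152, 156 and 151 CPM after heat, 1.65-fold higher (log2 0.72). The 2D copy was 1.62-fold higher (log2 0.70), with 54.4 to 59.6 CPM in controls and 86.2 to 97.3 CPM after heat. The 2B copy was 1.33-fold higher (log2 0.41), with 108 to 111 and 141 to 149 CPM. None of the 3 reached a 2-fold change, yet in each the lowest heat-stressed library was above the highest control library.

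In ‘Ellvis’ the MEI2-like 4 copies had ranges with like upper ends with and without heat, and the control ranges were wider. The 2A copy had 42.4, 84.1 and 79.7 CPM in controls and 70.9, 83.4 and 85.2 CPM after heat. For 2B the ranges were 50.8 to 84 CPM and 78.4 to 86.3 CPM, and for 2D 27.7 to 60.3 CPM and 54.1 to 61.9 CPM. In all 3 the shallow control library set the lower end of the control range. For 2A and 2B, heat-stressed ‘Mv 17-09’ was the highest group and ‘Mv 17-09’ controls the next, while the ‘Ellvis’ groups overlapped. For 2D only heat-stressed ‘Mv 17-09’ stood above the other groups, which overlapped with one another.

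Among the AML2 copies, 7D had the widest range over the groups. It had 68.8, 73.1 and 61.3 CPM in ‘Mv 17-09’ controls and 34, 30.8 and 39 CPM after heat, when it was at 51.1% of control (log2 −0.97), just short of a 2-fold change. In ‘Ellvis’ it had 15.8, 29.8 and 28.4 CPM in controls and 26.6, 27.5 and 29.5 CPM after heat. All ‘Mv 17-09’ libraries, heat-stressed ones included, were thus above all ‘Ellvis’ libraries. Without ‘Mv 17-09’ control replicate 3 or heat-stressed replicate 3 the log2 fold change was −1.05 and −1.07, and the copy then met the criteria.

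The 4A copy was at 59.9% of control in heat-stressed ‘Mv 17-09’ (log2 −0.74), with 42.6 to 46.1 CPM in controls and 24.6 to 28.7 CPM after heat. The 7A copy was at 77.2% (log2 −0.37), with 33.9 to 39.1 CPM and 27.1 to 30.4 CPM. In ‘Ellvis’ the ranges were 16.4 to 28.3 and 22.4 to 24.1 CPM for 4A, and 15.8 to 25 and 24.5 to 24.8 CPM for 7A. For both copies ‘Mv 17-09’ controls were the highest group, and the ‘Ellvis’ groups overlapped. Over all 9 copies the ‘Mv 17-09’ control and heat-stressed ranges did not overlap, with heat above control in 3 and below in 6, where ranges did not overlap for 44.3% of all tested gene models, 20.9% above and 23.4% below.

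The heat contrast in ‘Ellvis’ was not used to pick the names and was tested. With edgeR’s quasi-likelihood test, 0 of 9 copies were called, where 3.62% of all tested gene models were (1.98% rose and 1.64% fell). DESeq2 and limma voom also called 0 of 9 copies, and 1 copy, 1B, had an unadjusted p under 0.05 in edgeR. The log2 fold change of 1B was 0.71 (approximate SE 0.22, 95% interval 0.25 to 1.16, edgeR adjusted p = 0.0602), and every heat-stressed library was above every control. Across the alternatives its adjusted p ran from 0.001 to 0.262 and its log2 fold change from 0.45 to 0.92, below 2-fold in each. Without ‘Ellvis’ control replicate 1 it was 0.45 (edgeR adjusted p = 0.001).

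For the 1A copy the log2 fold change in ‘Ellvis’ was 0.40 (SE 0.21, 95% interval −0.06 to 0.85, edgeR adjusted p = 0.316), and 0.14 without the shallow library. The other 7 copies lay between −0.11 for 4A and 0.20 for 1D, with edgeR adjusted p from 0.535 to 0.824. Their 95% intervals reached from −0.45 at the lowest to 0.62 at the highest, so changes of 2-fold lay outside them, whereas smaller ones did not. Ranges of heat-stressed above control libraries were found for 1A and 1B, 2 of 9 copies, and the opposite for 0 of 9. Over all tested gene models ranges did not overlap for 22.9%, with heat above control in 12.7% and below in 10.2%. Without the shallow library the values for 2A, 2B, 2D, 7A and 7D were between −0.06 and 0.00, on the other side of 0, and 4A was at −0.25.

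**Figure D2:**
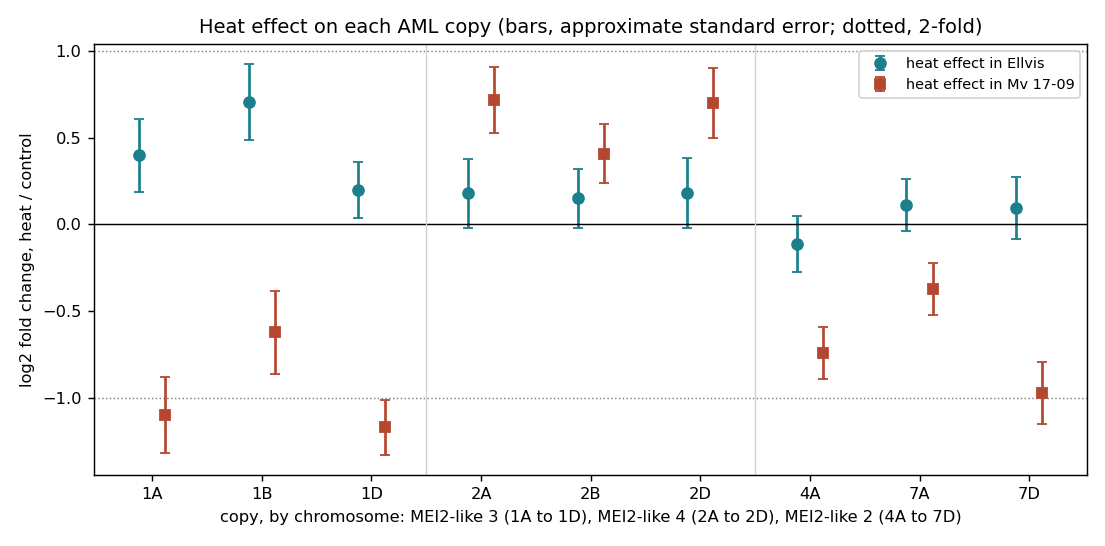
Log2 fold change of heat-stressed over control anthers (vertical axis) for the 9 copies, in ‘Ellvis’ (circles) and in ‘Mv 17-09’ (squares), with bars for the approximate standard error and dotted lines at a 2-fold change. In ‘Mv 17-09’ the MEI2-like 3 and AML2 copies are below 0 and the MEI2-like 4 copies above it, with 1A at −1.10 and 1D at −1.17 past the dotted line, while 8 of the 9 ‘Ellvis’ values are above 0 and none is past it.

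The difference between the heat effects, ‘Mv 17-09’ minus ‘Ellvis’, was −1.50 on the log2 scale for 1A, −1.33 for 1B, −1.37 for 1D and −1.07 for 7D. These 4 of 9 copies met the criteria, where 5.21% of all tested gene models did, 3.75% with such a negative difference and 1.46% with a positive one. The names were picked on part of this contrast, and no p is given. For the 1B copy the difference combined values that did not meet the criteria in either cultivar, lower in ‘Mv 17-09’ and higher in ‘Ellvis’. Its ‘Mv 17-09’ value rests on 64 to 220 counts per library, and how reads shared with 1A and 1D were divided is not known. The remaining copies had −0.63 (4A), −0.49 (7A), 0.54 (2A), 0.52 (2D) and 0.26 (2B). Leaving out 1 library of 12 at a time, 2 to 4 copies met the criteria: 1A and 1D did each time, whereas 1B did not in 8 and 7D not in 7 of these fits. For 1B these left out any heat-stressed library or ‘Mv 17-09’ control replicate 2 or 3, with values from −1.27 to −1.41. For 7D they left out ‘Ellvis’ control replicate 1 or replicates 1 or 2 of the ‘Mv 17-09’ groups or heat-stressed ‘Ellvis’ replicates 2 or 3, with values from −0.92 to −1.12. Without ‘Ellvis’ control replicate 1 the values were −1.25, −1.08, −1.23 and −0.92 for 1A, 1B, 1D and 7D.

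Unstressed anthers of the cultivars were compared next. This test shares the ‘Mv 17-09’ control libraries with the contrast that was known when the names were picked. Its p-values are therefore not independent of the pick. For copies that were lower after heat in ‘Mv 17-09’ and higher in its controls, they may be too small. The 1B copy was 11.6-fold lower in ‘Mv 17-09’ than in ‘Ellvis’ (log2 −3.54, SE 0.24, 95% interval −4.05 to −3.02, edgeR adjusted p = 2.89e-08). The 7D copy was 2.6-fold higher (log2 1.38, SE 0.18, 95% interval 0.99 to 1.76, edgeR adjusted p = 3.99e-05), and the 1A copy 2.13-fold higher (log2 1.09, SE 0.22, 95% interval 0.63 to 1.55, edgeR adjusted p = 0.00169). So 2 of 9 copies were called higher and 1 lower, where 5.83% of all tested gene models were higher and 7.02% lower.

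Without ‘Ellvis’ control replicate 1, the 1A value was 0.84 and the copy was no longer 2-fold higher, while 1B was at −3.79 and 7D at 1.22. The copies on 1D (log2 0.69, edgeR adjusted p = 0.00582), 4A (0.82, edgeR adjusted p = 0.00137), 7A (0.71, edgeR adjusted p = 0.00289) and 2B (0.57, edgeR adjusted p = 0.0261) were also higher in ‘Mv 17-09’ controls, by less than 2-fold. The values for 2A (0.40, edgeR adjusted p = 0.176) and 2D (0.15, edgeR adjusted p = 0.665) did not pass the test. Without the shallow library 2A was at 0.19 and 2D at −0.07, and 1D, 4A, 7A and 2B were at 0.54, 0.69, 0.60 and 0.40. The ‘Mv 17-09’ control range was above that of ‘Ellvis’ for 7 copies and below it for 1, where ranges did not overlap for 33.5% of all tested gene models, 17.8% above and 15.7% below.

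The low level of the 1B copy in ‘Mv 17-09’ was shared by the gene models around it. Of the 40 high-confidence models nearest to it by their numbering, 20 on each side, 13 could be tested, and 11 of these were called lower in ‘Mv 17-09’ controls and 1 higher. That is 84.6% lower, where 7.02% of all tested gene models were. The median log2 difference of the 13 was −3.53, close to the value of the copy itself, and single neighbours reached −8.81 and −8.48. Over the 6 libraries of each cultivar, 22 of the 40 models had at least 10 counts in ‘Ellvis’ and 8 had in ‘Mv 17-09’, with 7120 and 1157 counts in all. Around the 1A copy, 4 of 9 tested neighbours were higher and 0 lower, where 5.83% of all tested gene models were higher. Their median was 0.82, beside 1.09 for the copy itself. Around 1D, 3 of 10 were higher and 1 lower, with a median of 0.30. For the other 6 copies the medians of the neighbours were between 0.04 and 0.26. A run of low gene models was thus seen around 1B and not around the other copies. What sets the low counts of this stretch was not tested.

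**Figure D3:**
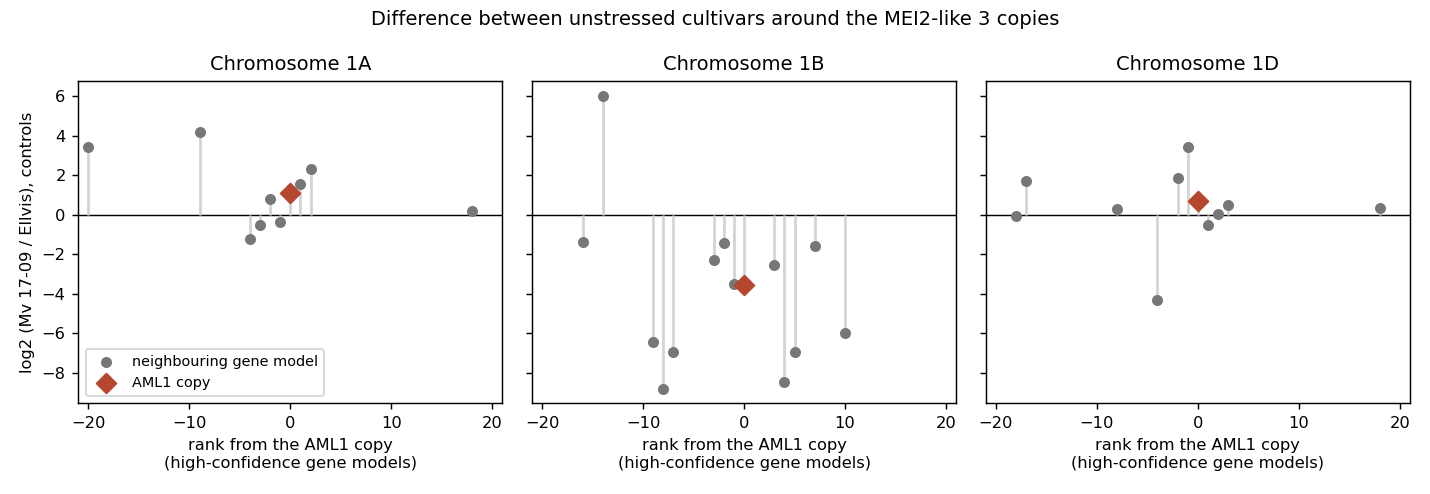
Log2 difference between ‘Mv 17-09’ and ‘Ellvis’ controls (vertical axis) for the tested gene models around the MEI2-like 3 copies on 1A, 1B and 1D, against their rank from the copy among high-confidence gene models (horizontal axis, 20 on each side). Grey points are neighbours and the red diamond is the AML1 copy. On 1B, 12 of the 13 neighbours are below 0, with a median of −3.53, while the medians on 1A and 1D are 0.82 and 0.30.

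Summed over its 3 copies, the MEI2-like 3 group had 430, 443 and 409 CPM in ‘Mv 17-09’ controls and 220, 400 and 433 CPM in ‘Ellvis’ controls. The sums thus overlapped in range, although the 1B copy was low in ‘Mv 17-09’. The log2 difference of the sums was 0.28 (SE 0.20, 95% interval −0.15 to 0.71, edgeR adjusted p = 0.388), and 0.04 without ‘Ellvis’ control replicate 1. After heat the sum was 198, 196 and 197 CPM in ‘Mv 17-09’ and 475, 518 and 489 CPM in ‘Ellvis’. The heat-stressed sum in ‘Mv 17-09’ was 46.1% of its control (log2 −1.12) and 39.9% of that in heat-stressed ‘Ellvis’ (log2 −1.33). Both differences met the criteria, but the names were picked with the heat response of ‘Mv 17-09’ known, so both are a description. In ‘Ellvis’ the log2 fold change of the sum under heat was 0.48 (SE 0.20, 95% interval 0.06 to 0.91, edgeR adjusted p = 0.176), and without ‘Ellvis’ control replicate 1 it was 0.24 (edgeR adjusted p = 0.0353).

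The MEI2-like 4 sum met the criteria in no contrast. It had 256, 261 and 261 CPM in ‘Mv 17-09’ controls and 394, 391 and 386 CPM after heat, a log2 difference of 0.59, with 121, 228 and 221 CPM in ‘Ellvis’ controls and 203, 222 and 233 CPM after heat. Its log2 fold change under heat in ‘Ellvis’ was 0.20 (edgeR adjusted p = 0.634), and −0.04 without the shallow library. The AML2 sum had 154, 155 and 138 CPM in ‘Mv 17-09’ controls and 90.1, 84.1 and 94.7 CPM after heat (log2 −0.73). In ‘Ellvis’ it had 48, 83 and 78.9 CPM in controls and 73.7, 76.1 and 76.9 CPM after heat (log2 0.08, edgeR adjusted p = 0.854). That log2 value was −0.10 without the shallow library. In controls the AML2 sum was 2.08-fold higher in ‘Mv 17-09’ (log2 1.06, SE 0.18, edgeR adjusted p = 0.000385), but without ‘Ellvis’ control replicate 1 the value was 0.88, under 2-fold. The limit stated for the control contrast holds for this p-value too.

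**Figure D4:**
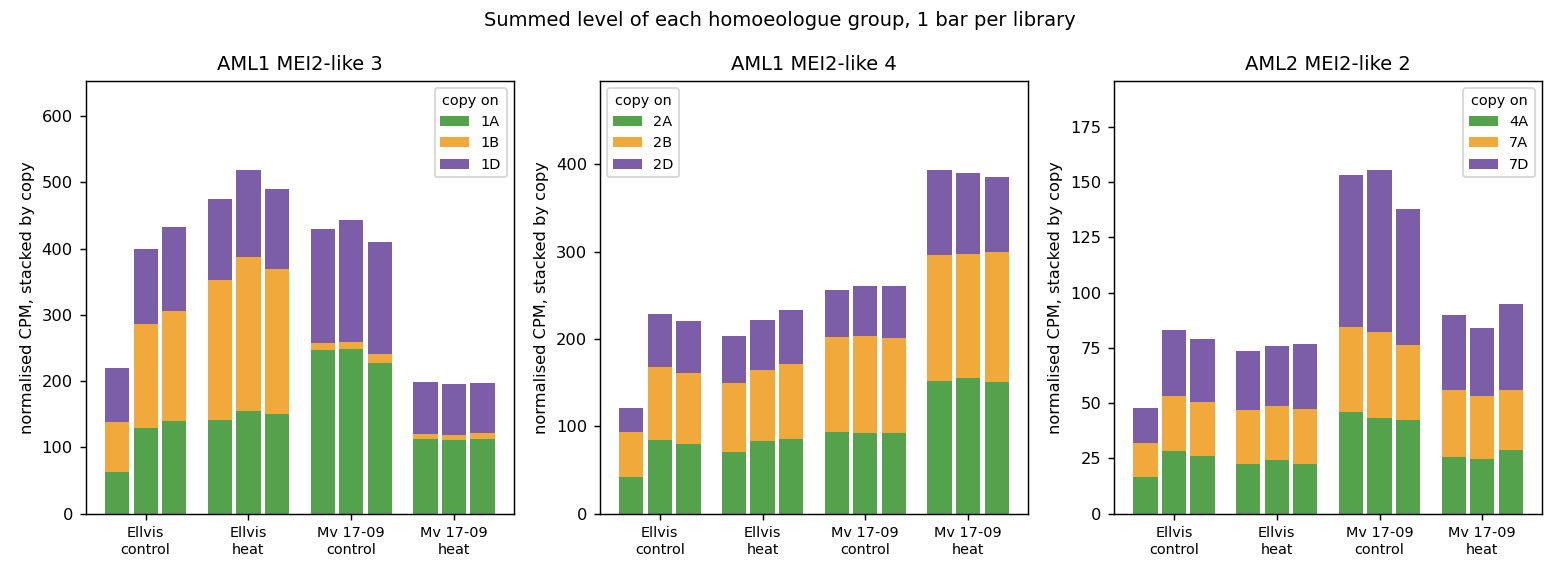
Normalised CPM stacked by copy (vertical axis, from 0), with 1 bar per library, for the 3 homoeologue groups. The MEI2-like 3 bars of ‘Mv 17-09’ controls reach 409 to 443 CPM with a thin 1B layer, and those of heat-stressed ‘Mv 17-09’ 196 to 198 CPM. The MEI2-like 4 bars are highest in heat-stressed ‘Mv 17-09’, at 386 to 394 CPM, and the AML2 bars in ‘Mv 17-09’ controls, at 138 to 155 CPM.

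The share of each copy in its group’s counts does not depend on library size. The 1B copy gave 34.7, 39 and 38.4% of the MEI2-like 3 counts in ‘Ellvis’ controls and 44.5, 45 and 44.5% after heat (exact permutation test, two-sided, p = 0.1, the smallest that 3 against 3 allows, so that no share can pass a threshold of 0.05). The same p was given in ‘Ellvis’ for 1D, at 31.5% in controls and 25.2% after heat, for 4A, at 33.8 and 30.5%, and for 7D, at 34.9 and 36.9%. The 1D control mean holds 36.8% from the shallow library, beside 28.4 and 29.3% in the other controls. That of 7D holds 32.9% from it, beside 35.9% in each of the others. The shares of a group add up to its whole and are not separate results. In ‘Mv 17-09’ the 1B copy gave 2.51, 2.6 and 3.07% of the MEI2-like 3 counts in controls and 3.36, 3.96 and 4.18% after heat. The 1A copy made up 31.1 ± 2.25% in ‘Ellvis’ controls and 56.4 ± 0.974% in ‘Mv 17-09’ controls, and 30.2 and 56.9% after heat (SD, n = 3). In ‘Mv 17-09’, then, the 1A and 1D shares were nearly the same before and after heat, as the levels of both copies went down together.

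Shares in MEI2-like 4 varied by a few points. The 2A copy gave 36% in the controls of both cultivars, 36.3% in heat-stressed ‘Ellvis’ and 39.3% in heat-stressed ‘Mv 17-09’, and the 2B share differed by −5.04 points between heat and control in ‘Mv 17-09’. For AML2, 7D gave 45.5% in ‘Mv 17-09’ controls, 38.5% in heat-stressed ‘Mv 17-09’, and 34.9 and 36.9% in ‘Ellvis’. In ‘Mv 17-09’ the 7D share thus differed by −6.94 points between heat and control, and that of 7A by 7.18 points.

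In heat-stressed anthers, levels of the cultivars differed by −4.87 on the log2 scale for 1B, 29.2-fold lower in ‘Mv 17-09’, the only 1 of 9 copies that met the criteria, where 13.2% of all tested gene models were lower and 8.66% higher. The copies on 1A and 1D were at −0.41 and −0.68, below ‘Ellvis’, whereas both had been above it in controls. The MEI2-like 4 copies were higher in ‘Mv 17-09’, at 0.94 (2A), 0.82 (2B) and 0.67 (2D). The AML2 copies were at 0.19 (4A), 0.22 (7A) and 0.31 (7D), so the excess of 7D seen in controls (1.38) was smaller. Ranges of the cultivars did not overlap after heat for any copy, with ‘Mv 17-09’ above in 6 and below in 3, where that held for 53.4% of all tested gene models, 25.6% above and 27.8% below.

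Over the 12 libraries, log2 CPM of each copy was set beside 682 other tested genes of the study’s meiosis, spindle, actin and tapetum lists. These correlations rest on 4 groups, include the shallow library and are a description. Without that library, r with the 3 closest genes of each copy ran from 0.867 to 0.987. For the MEI2-like 4 and AML2 copies, the most alike gene was another copy of the same group: 2A with 2B (Pearson r = 0.971) and 2D (0.965), and 4A with 7D (0.977), which was also the closest to 7A (0.955). The copies on 1A and 1D had r = 0.891 with each other and shared their closest genes, TraesCS6B03G1162300 on the tapetum list, annotated as IRE1-like (0.961 with 1A and 0.938 with 1D), and the AUGMIN subunit 6-like gene TraesCS5A03G0296500 (0.956 and 0.931), which belongs to the complex that nucleates microtubules along others. The third for 1A was TraesCS6A03G0720200, an EAT1-like basic helix-loop-helix factor (0.920), also close to 4A (0.929) and 7D (0.959), and for 1D it was the cohesin remover Wapl, TraesCS1B03G0549000 (0.924).

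The 1B copy was not alike to 1A (r = −0.182). Its closest genes all lie on 1B: the crossover endonuclease MUS81-like TraesCS1B03G0333800 (0.987), the villin-1-like TraesCS1B03G0333400 (0.983) and the actin-97-like TraesCS1B03G0048800 (0.982). Beyond the copies of their own group, 2A was closest to the tubulin beta-2 chain TraesCS3A03G0797100 (0.943). For 2B they were the serpin-Z2B-like TraesCS5B03G1020700 (0.970) and the actin-7 gene TraesCS1D03G0659200 (0.957), and for 2D the fimbrin TraesCS6A03G0751100 (0.958) and a PP2A catalytic subunit, TraesCS7A03G0890200 (0.958). For 7A they were the kinesin KIN-13A gene TraesCS1A03G0230500 (0.945) and TraesCS3A03G0932700, listed under the cohesin subunit Rad21 (0.938).

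Of the 200 other IDs on the meiosis list, 149 were tested. In heat-stressed ‘Mv 17-09’ 4 rose and 3 fell, where 4.67% and 6.93% of all tested gene models did, with a median log2 fold change of 0.03, against 0.00 over all genes. In ‘Ellvis’ 2 rose and 1 fell, where 1.98% and 1.64% did over all genes, with a median of −0.18 against 0.00. Without ‘Ellvis’ control replicate 1 the counts were 5 and 4 in ‘Ellvis’, and 7 rose in ‘Mv 17-09’. The paper counted the whole list, AML copies included, at an adjusted p under 1e-06. It reports only downregulated genes of the list in ‘Mv 17-09’, so its counts and these are not alike. In ‘Ellvis’ the smallest p-values here belonged to TraesCS4A03G0550000, under PS1, and the serpin TraesCS5D03G1024700. The PS1 gene, which acts in spindle orientation at meiosis II, went from 25.8 ± 3.83 to 14.3 ± 1.67 CPM (log2 −0.90, edgeR adjusted p = 0.00192), below 2-fold and so not called. The serpin went from 0.92 ± 0.187 to 3.21 ± 0.629 CPM (log2 1.93, edgeR adjusted p = 0.00304). Between controls 2 were higher and 9 lower in ‘Mv 17-09’, where 5.83% and 7.02% were over all genes, with a median of −0.25 against −0.01.

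Marker genes of meiocytes and tapetum were both present, as anthers at meiosis would have. The summed level of 34 meiotic prophase genes of the same list, among them DMC1, ASY1 and ZYP1, was 167 to 190 CPM in ‘Mv 17-09’ controls and 172 to 187 CPM after heat, with 0 genes at 0. In ‘Ellvis’ it was 136, 239 and 237 CPM in controls, the lowest in the shallow library, and 191 to 192 CPM after heat. Apart from the shallow library, the ‘Ellvis’ controls were thus above the heat-stressed libraries. The summed level of 34 tapetum genes, 2 of which were at 0 in every group, was 21500 to 24300 CPM in ‘Mv 17-09’ controls and 5270 to 6870 CPM after heat. In ‘Ellvis’ it was 17400 to 36200 CPM and 16700 to 19500 CPM, with the highest value in the shallow library. Tapetum genes did not all go the same way in the paper. It reports lower sporopollenin synthesis genes in ‘Mv 17-09’, but higher callose dissolution and pollen coat genes in both cultivars. The sum therefore stands for the 34 genes taken and not for the amount of tapetum. In ‘Mv 17-09’ the tapetum sum was thus lower after heat, as were 6 of the 9 AML copies, while the ranges of the prophase sum overlapped. Among ‘Ellvis’ controls the order was another. There the shallow library was the lowest for all 9 copies and for the prophase sum, and the highest for the tapetum sum. The part of either sum in the AML values was not tested.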

How the data were processed

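RNA of 12 anther libraries, 3 in each of 4 groups, was sequenced. The authors checked the reads (FastQC 0.11.8), trimmed them, mapped them to the IWGSC RefSeq assembly in CLC Genomics Workbench and deposited raw counts for each gene model. The sources used here do not state the strand setting or the treatment of multiply mapped reads. No file repeated another.

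Testing used edgeR 4.0.16 (R 4.3.3) and its quasi-likelihood method. filterByExpr (minimum count 10, minimum total 15) kept 70527 of 266760 gene models. TMM scaled the libraries, and 1 fit held all 4 groups. Calls needed a 2-fold change or more and an adjusted p under 0.05 (Benjamini-Hochberg, all tested genes). The approximate SE divides the size of a log2 fold change by √F. Log2 CPM used a prior count of 2. For group sums the 9 rows were replaced by 3 summed rows in the same fit. Shares were compared by exact permutation. The calling step was tested on simulated counts. Intervals for library depth were not needed, since replicate spread enters each test.

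The members and gene lists were chosen with earlier results of these data known. Named were all 9 IDs under AML1, AML4 and AML2, the 3 listed genes with the highest Pearson r to each, and the 2 other meiosis genes with the smallest p in the ‘Ellvis’ heat contrast. Those of the ‘Mv 17-09’ contrast are not reported here. Single neighbours on 1B were given after their values were seen. Alternatives were library totals without TMM, other count filters, DESeq2 1.42.0, limma 3.58.1 voom with sample weights, the study's criteria (edgeR likelihood ratio and DESeq2 tests, adjusted p under 1e-06), each cultivar alone, a replicate block, low-confidence models left out, and each library left out in turn. The study's tests were run in CLC, so its criteria were only approximated here.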

Additional observations from a re-analysis of the deposited data

Results flagged for a closer look

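The difference between the heat effects met the criteria in 4 of the 9 copies, which is a description and not a test of them. Over all tested gene models 5.21% met the criteria, 3.75% with a negative difference. The difference, ‘Mv 17-09’ minus ‘Ellvis’ on the log2 scale, was −1.50 for TraesCS1A03G0016300, −1.33 for TraesCS1B03G0015900, −1.37 for TraesCS1D03G0008200 and −1.07 for TraesCS7D03G0007200. These copies were picked with the ‘Mv 17-09’ contrast known, which is part of this difference, so the values are a description. When 1 of the 12 libraries was left out, 1B lost its call in 8 fits and 7D in 7.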

How the results depend on the processing

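Of the 9 copies, 2 met the criteria for heat in ‘Mv 17-09’, but 1 with library totals alone and 1 with the study's criteria, both times without 1A, and 2 to 3 when single libraries were left out. For the difference between heat effects, 4 became 1 (1D) with the study's criteria and 2 to 4 without single libraries. Of the 3 sums, 1 (AML2) was higher in ‘Mv 17-09’ controls, but 0 with library totals alone and 0 to 1 without single libraries. The 1A copy was not called in controls with voom (0.89) or the study's criteria, and 7D not in the difference with voom (−0.95), but it was called for heat in ‘Mv 17-09’ without the low-count filter (−1.03). No called value changed sign. Deviations of same-numbered control and heat-stressed libraries had r = 0.18, 0.10 and 0.08 in ‘Ellvis’ and 0.03, 0.01 and 0.00 in ‘Mv 17-09’. In ‘Ellvis’ differently numbered ones ran from −0.18 to 0.09, with 0.09 and 0.07 between replicates 2 and 3. The numbers were not taken as pairs. With the replicate block 0 copies were called in ‘Ellvis’, 2 in ‘Mv 17-09’, 4 in the difference, 3 in controls and 1 after heat, as without it. Among the other meiosis genes, 2 rose and 1 fell in ‘Ellvis’, but 1 and 0 with DESeq2 or each cultivar alone, 4 and 4 with voom, 0 and 0 with the study's criteria, 0 fell with library totals alone or without the low-count filter, and 1 rose with the replicate block. In ‘Mv 17-09’ 4 rose and 3 fell, but 1 rose with DESeq2 or the block, 0 rose and 1 fell with the study's criteria, and 5 fell with voom or without the filter. Without single libraries 1 to 5 rose and 0 to 4 fell in ‘Ellvis’, and 1 to 7 and 3 to 6 in ‘Mv 17-09’. Over all tested genes, 1393 rose and 1157 fell in ‘Ellvis’, but 3161 rose without ‘Ellvis’ control replicate 1 and 3127 with voom, 610 and 611 with each cultivar alone, 1737 fell without the filter, and without single libraries as few as 799 rose, and 704 fell without heat-stressed replicate 3. With the study's criteria 202 rose and 288 fell there, 714 and 1574 in ‘Mv 17-09’ (from 3297 and 4887), and 105 and 487 differed between the heat effects (from 1031 and 2644, and 2310 and 5137 with voom). Between controls these criteria gave 1140 higher and 1576 lower (from 4112 and 4954, and 7665 lower without the filter), and after heat 1754 and 2591 (from 6110 and 9338). The study ran its own tests in CLC and reported more risen and more fallen genes under heat in both cultivars. The counts given here for its criteria therefore do not reproduce its own.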
